A study of Mus musculus with 20 samples.

Results

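Mouse B lymphoma cell lines that all carried a *Myc* transgene and an activated *Bcl2* were compared by RNA-seq, 2 lines labelled IgM-negative and 4 lines labelled IgM-positive. IgM is the first antigen receptor that a developing B cell places on its surface. The columns of the 6 lines were taken by their labels from the 20 libraries of the series, and the 1285 genes on X and Y were left out, because the sex of the donor embryos is not given. This left 24584 of the 25869 genes in the table, of which 11994 passed the filter on low read numbers and were tested.

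All 6 lines were of the genotype Eµ-Myc/dCas9a-SAM KI/+ with sgBcl-2. In the Eµ-Myc transgene the immunoglobulin heavy chain enhancer Eµ drives *Myc* in the B lineage, and dCas9a-SAM is a nuclease-dead Cas9 fused to activators that raises the gene named by the sgRNA, here the endogenous *Bcl2*. Foetal liver cells of E14.5 embryos had been infected with the sgRNA lentivirus and given to lethally irradiated female C57BL/6-Ly5.1 mice, 6 weeks old, and the lines were grown out of the lymphomas of the recipients in FMA medium, without treatment. The IgM-positive lines are called here 14, 15, 16 and 17, and the IgM-negative lines 18 and 19, by the library numbers in their titles. The 6 lines came from 6 recipient mice, so that each group holds lines of separate tumours, and each line is the outgrowth of 1 tumour. Values of 2 IgM-positive primary tumours of the same genotype (libraries 20 and 21) and of 2 preB-ALL libraries (leukaemias titled P190CreERLSLErg and P190RagCreErg, both labelled as driven by BCR-ABL1, grown with IL7 and prepared with another RNA kit) are given beside some results as further reference levels and entered no test of the main comparison.

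A B cell progenitor first joins V, D and J segments of the heavy chain locus with the RAG recombinase, and the heavy chain then pairs with the surrogate light chain, made of the VPREB and IGLL1 proteins, as a pre-B cell receptor. A light chain gene of the kappa or the lambda locus is joined next, and heavy and light chains reach the surface as IgM with the signalling partners CD79A and CD79B. Transcripts of the *Ighm* constant gene are also made from a heavy chain locus that holds no complete V gene join. Maturing B cells lose the recombinase and the surrogate light chain and gain MHC class II, with which they present antigen to T cells.

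The 6 libraries held between 20083235 and 26678417 reads on genes, with no gap in depth between the groups. *Pax5*, the factor that holds B cell identity, was present in every line, at 90.6, 125, 50.1 and 48.3 CPM (counts per 1000000 reads of the library) in lines 14 to 17 and at 55.2 and 43.1 CPM in lines 18 and 19. *Ms4a1*, which encodes the mature B cell protein CD20, was at 4.06, 7.46, 0 and 0.0498 CPM in lines 14 to 17 and at 0.0781 and 0 CPM in lines 18 and 19, low in lines 14 and 15 and near 0 in the others, while the primary tumours held 529 and 799 CPM. Of the markers of other cells, the erythroid markers summed to at most 1.50 CPM in any line and overlapped. The sums of 4 lists (NK, myeloid, T and plasma cell) were lower in both IgM-negative lines than in every IgM-positive line. The 8 NK cell markers summed to between 0.548 and 1.46 CPM in the IgM-positive and to 0.352 and 0.388 CPM in the IgM-negative lines, and the 13 myeloid markers to between 6.18 and 14.1 and to 2.34 and 4.27 CPM. The 12 fibroblast markers summed to between 5.53 and 87.8 CPM in the IgM-positive lines, highest in line 15, and to 5.82 and 7.33 CPM in lines 18 and 19, and overlapped. *Thy1*, which is on the fibroblast and the T cell list, gave the most in line 15. The 13 T cell markers summed to 8.31, 52.8, 3.60 and 21.9 CPM and to 2.62 and 3.53 CPM, of which *Thy1* alone gave 49.6 CPM in line 15. The 8 plasma cell markers summed to 304, 415, 253 and 179.7 CPM in the IgM-positive and to 151 and 103 CPM in the IgM-negative lines. *Irf4*, which is also a factor of earlier B cells, was at 197, 333, 84.6 and 66.1 and at 80.1 and 18.0 CPM, and *Jchain*, at 0.114 CPM or less, was near 0. The part of these differences in the results below was not tested. In such bulk samples, fewer cells of a type and less RNA per cell cannot be told apart.

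The IgM-negative lines still held abundant *Ighm* RNA but almost no RNA of heavy chain V genes. *Ighm*, the constant gene of IgM (GRCm38 chromosome 12), was at 2711, 2649, 2109.8 and 1462 CPM in lines 14 to 17 and at 1178 and 1441 CPM in lines 18 and 19. The groups did not overlap, but the difference of -0.67 ± 0.27 (log2, SE) had an adjusted p of 0.421 in limma. All differences below are IgM-negative minus IgM-positive on the log2 scale of CPM + 0.1, with the standard error of the fit, and they understate the change of genes with low values. As a background for what follows, limma called 68 of the 11994 tested genes (0.567%) at an adjusted p under 0.05, and 15.0% of them were lower and 7.61% higher in both IgM-negative lines than in the whole range of the IgM-positive lines. At an unadjusted p under 0.05, 7.20% of the tested genes were lower and 4.07% higher in limma (11.3% in all), against 9.27% in limma-voom and 11.4% in edgeR in either direction. DESeq2, which calls many more genes, called 712 of the 11994 (5.94%), 4.61% lower and 1.33% higher. The median difference over all tested genes was -0.019.

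Summed over the 120 heavy chain V genes in the table, the IgM-positive lines held 5877, 10925, 8119 and 3770 reads, whereas line 18 held 8 reads and line 19 held 1 read. This corresponded to 238, 410, 308 and 188 CPM against 0.313 and 0.0431 CPM. Set against the *Ighm* reads of the same library, lines 14 to 17 held 87.9, 154.6, 146 and 128 heavy chain V reads per 1000 *Ighm* reads, and lines 18 and 19 held 0.265 and 0.0299. The primary tumours, at 104 and 91.3, lay within or close to the range of the IgM-positive lines. With 2 lines against 4, the exact two-sided permutation test gave p = 0.133 for the summed CPM, the smallest value that this design allows.

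Reads of the heavy chain J and D segments were still present in both IgM-negative lines. The 4 J genes together were at 45.2, 22.6, 22.4 and 15.4 CPM in lines 14 to 17 and at 7.03 and 9.53 CPM in lines 18 and 19, lower without overlap (exact two-sided permutation p = 0.133, the smallest possible). Of the D genes, line 18 held 53 reads, all on *Ighd4-1*, and line 19 held 95 reads, of which 94 were on *Ighd2-4*. D gene reads were also seen in lines 14 and 17, at 280.0 and 65, and were absent from lines 15 and 16, so that they did not separate the groups (exact two-sided permutation p = 0.933).

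Light chain V genes were transcribed in both groups. Kappa V genes held 14045, 20616, 10714 and 9550.0 reads in lines 14 to 17 and 19126 and 5119 reads in lines 18 and 19, which overlapped. Lambda V genes held 174, 478, 12 and 3 reads in the IgM-positive lines, 9431 reads in line 18 and 37 reads in line 19. In line 18, 9356 of the lambda reads fell on *Iglv1*, and the constant gene *Iglc1* was at 292 CPM, against 1.50, 17.3, 0.455 and 0 CPM in lines 14 to 17 and 0.0431 CPM in line 19. Line 18 thus held RNA of both light chain classes, and line 19 mainly of kappa. As a share of all immunoglobulin V reads, heavy chain V genes made up 33.7% ± 6.76 (SD, n = 4 lines) in the IgM-positive and 0.0237% ± 0.00609 (n = 2 lines) in the IgM-negative lines (exact two-sided permutation p = 0.133). The kappa share was 65.7% ± 6.67 and 83.1% ± 22.8, and the lambda share was 0.611% ± 0.704 and 16.9% ± 22.8, with overlap between the groups in each (exact two-sided permutation p = 0.400 for each).

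**Figure D1:**
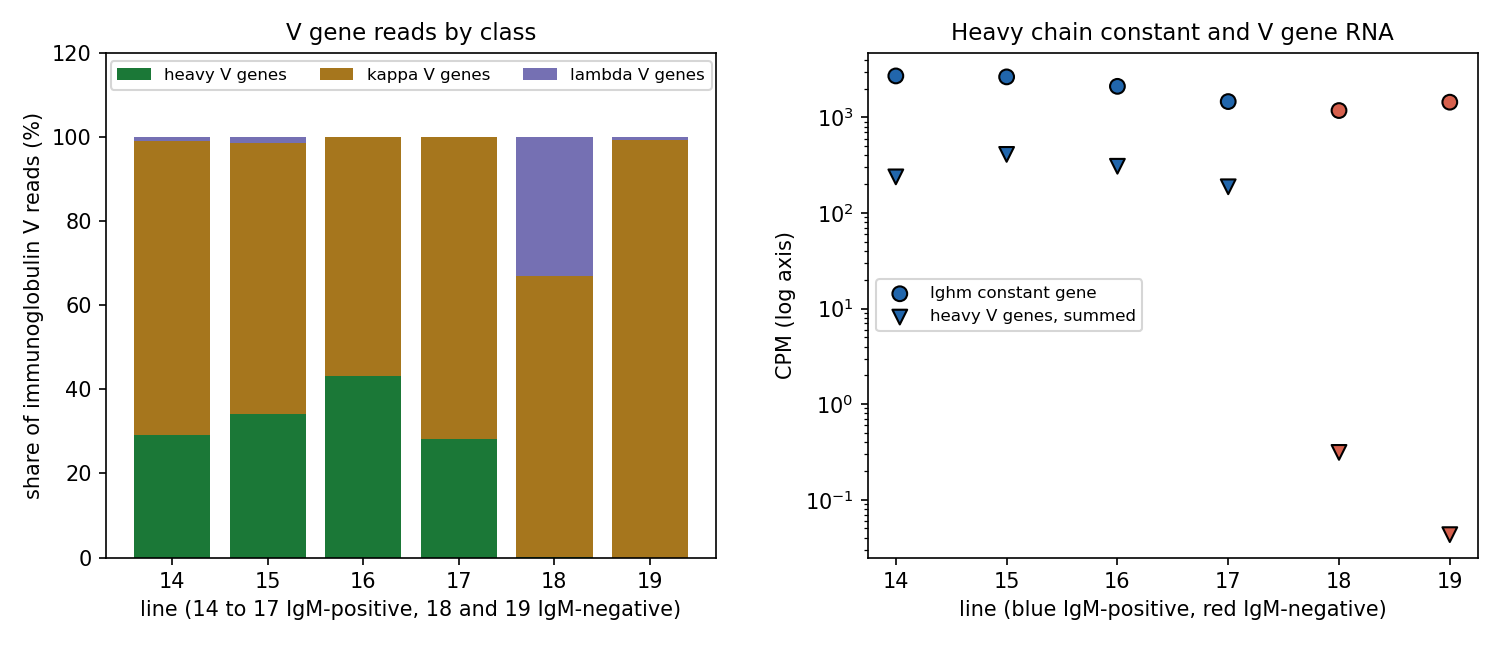
Left, the share of immunoglobulin V reads (%) that fell on heavy chain, kappa and lambda V genes in each line, as stacked bars. Right, CPM on a log axis of the constant gene *Ighm* (circles) and of all heavy chain V genes together (triangles), with IgM-positive lines in blue and IgM-negative lines in red. *Ighm* lay between 1178 and 2711 CPM in all 6 lines, while the heavy chain V sum was 0.313 and 0.0431 CPM in lines 18 and 19.

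Each line was led by its own kappa V gene, with the smallest share in line 17. The kappa V gene with the most reads was *Igkv17-127* in line 14 (91.0% of kappa V reads, 95% Wilson interval 90.5 to 91.5), *Igkv8-30* in line 15 (86.9%, 86.4 to 87.4) and *Igkv3-7* in line 16 (82.8%, 82.1 to 83.5). It was *Igkv1-117* in line 17 (47.7%, 46.7 to 48.7), *Igkv3-12* in line 18 (79.2%, 78.7 to 79.8) and *Igkv1-135* in line 19 (88.4%, 87.5 to 89.2). No 2 lines shared their leading kappa V gene. The leading heavy chain V genes,  *Ighv1-77* in line 14, *Ighv1-47* in line 15, *Ighv2-4* in line 16 and *Ighv1-53* in line 17, differed as well, with shares of 98.4%, 94.9%, 87.5% and 46.1%. In line 17 the next heavy chain V gene, *Ighv1-54*, held 34.2%. Tumour 20 was led by *Ighv1-47* and *Igkv8-30*, as line 15 was, and tumour 21 by *Ighv1-77* and *Igkv17-127*, as line 14 was. The labels place the tumours in the mice of lines 14 and 15 and give the mouse numbers in opposite order in 2 fields. The 3 heavy chain reads of the leading gene in line 18 were on *Ighv2-4* and the single read in line 19 was on *Ighv1-47*, which are the leading genes of lines 16 and 15. Reads of a V gene can fall on its near copies, and intervals cover counting error only.

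The signalling partners of IgM were present in both groups. *Cd79a* was at 466, 490.0, 528 and 755 CPM in lines 14 to 17 and at 327 and 325 CPM in lines 18 and 19, and *Cd79b* at 323, 349, 239.8 and 287 and at 218 and 184 CPM. Both were lower in the IgM-negative lines without overlap, by -0.69 ± 0.22 and -0.50 ± 0.16, but did not pass the threshold (limma, adjusted p = 0.329 and 0.334). The kappa constant gene *Igkc* was at 604, 724, 375 and 413 CPM and at 629 and 175 CPM, so that line 18 lay within and line 19 below the range of the IgM-positive lines. *Iglc2*, a lambda constant gene, was at 0.446, 0.525, 0 and 0 CPM and at 6.45 and 2.16 CPM (difference 4.05 ± 1.05, limma adjusted p = 0.253), and *Iglc3* was at 1.87, 25.9, 0 and 0.0498 CPM and at 0.0391 and 0.819 CPM. *Ighd*, the constant gene of IgD, was at 6.37, 7.80, 15.9 and 10.0 CPM and at 2.89 and 17.7 CPM and overlapped. Of the 16 members of this receptor list, 10 had reads in any line, 8 were tested and none was called by limma (3 lower and 1 higher at an unadjusted p under 0.05) or by DESeq2.

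Genes of the recombinase and of the surrogate light chain were lower in both IgM-negative lines than in every IgM-positive line. *Rag1*, a subunit of the recombinase, was at 98.1, 17.3, 9.51 and 11.7 CPM in lines 14 to 17 and at 0.430 and 0 CPM in lines 18 and 19. The difference was -6.46 ± 1.11, and its adjusted p of 0.0963 (limma) missed the threshold of 0.05. *Rag2*, its partner, was at 29.4, 6.93, 0.644 and 0.647 CPM and had no read in lines 18 and 19, where 3 reads would have been 0.117 and 0.129 CPM (limma, adjusted p = 0.329). Line 14 was thus highest for both genes, and lines 16 and 17 held little *Rag2*. The primary tumours held 0.263 and 0.648 CPM of *Rag1*, close to the IgM-negative lines, and the preB-ALL libraries 77.8 and 118.0 CPM.

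*Vpreb1* was at 43.2, 195, 120.3 and 209.9 CPM in lines 14 to 17 and at 2.30 and 14.2 CPM in lines 18 and 19 (-4.30 ± 0.87, limma adjusted p = 0.144). *Igll1*, the other component of the surrogate light chain, was at 78.6, 377, 80.2 and 225 and at 8.52 and 46.8 CPM (-2.86 ± 0.87, adjusted p = 0.316). *Vpreb2*, a near copy of *Vpreb1* that may share its reads, was at 0.892, 8.02, 1.29 and 2.44 and at 0.117 and 0.0862 CPM, and *Vpreb3*, which binds newly made light chains, at 185, 242, 69.6 and 168 and at 48.8 and 36.3 CPM. The groups did not overlap for any of these 4 genes, and line 18 was the lower of the IgM-negative lines for *Vpreb1* and *Igll1*. The tumours held 13.0 and 0.399 CPM of *Vpreb1* and the preB-ALL libraries 1102 and 1651 CPM.

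The end joining genes of the list did not move as one. *Lig4*, the ligase of the join, was at 47.3, 51.6, 35.4 and 82.6 CPM and at 29.7 and 20.0 CPM, lower in the IgM-negative lines, whereas *Xrcc5*, which encodes the DNA end binding protein Ku80, was at 48.6, 57.3, 73.8 and 73.4 and at 131 and 85.8 CPM, higher in them (limma, adjusted p = 0.357 and 0.334). *Xrcc6*, its partner Ku70, was at 198, 189, 690.1 and 686 CPM and at 493 and 272 CPM and overlapped, as *Xrcc4* and *Nhej1* did. *Prkdc* and *Dclre1c*, which encode the kinase and the nuclease that open the hairpin ends, were lower without overlap but by -0.35 and -0.25 only. *Dntt*, the polymerase that adds bases at the joins, was at 0.203, 0.262, 833 and 173 CPM and at 4.77 and 6.42 CPM, which placed the IgM-negative lines between 2 IgM-positive lines without and 2 with it. All 14 members were tested and none was called by limma (7 lower and 1 higher at an unadjusted p under 0.05), while DESeq2 called 5 lower, *Rag2*, *Igll1* and the 3 *Vpreb* genes. Of the 14, 9 were lower and 1 was higher without overlap, and the median difference was -0.98.

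The recombination list was 1 of 12 gene lists of B cell biology. The 12 gene lists together held 273 tested genes of 322, of which 78 were lower and 14 higher without overlap. Of all tested genes, 15.0% were lower and 7.61% higher without overlap. None of the 273 was called by limma, by limma-voom or by edgeR, while 64 (23.4%), 39 (14.3%) and 68 (24.9%) had an unadjusted p under 0.05, against 11.3%, 9.27% and 11.4% of all tested genes. DESeq2 called 50 (18.3%, against 5.94% of all), of which 2 were higher. With 1 line left out, limma called 9 without line 16, of which 6 were of MHC class II and the others *Vpreb3*, *Flt3* and *Il27ra*, 1 without line 15 (*Nfatc2*), 3 without line 18 (*Cd37*, *Pecam1* and *Pik3cg*), 2 without line 19 (*Lef1* and *Prkcb*) and 0 without line 14 or 17.

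**Figure D2:**
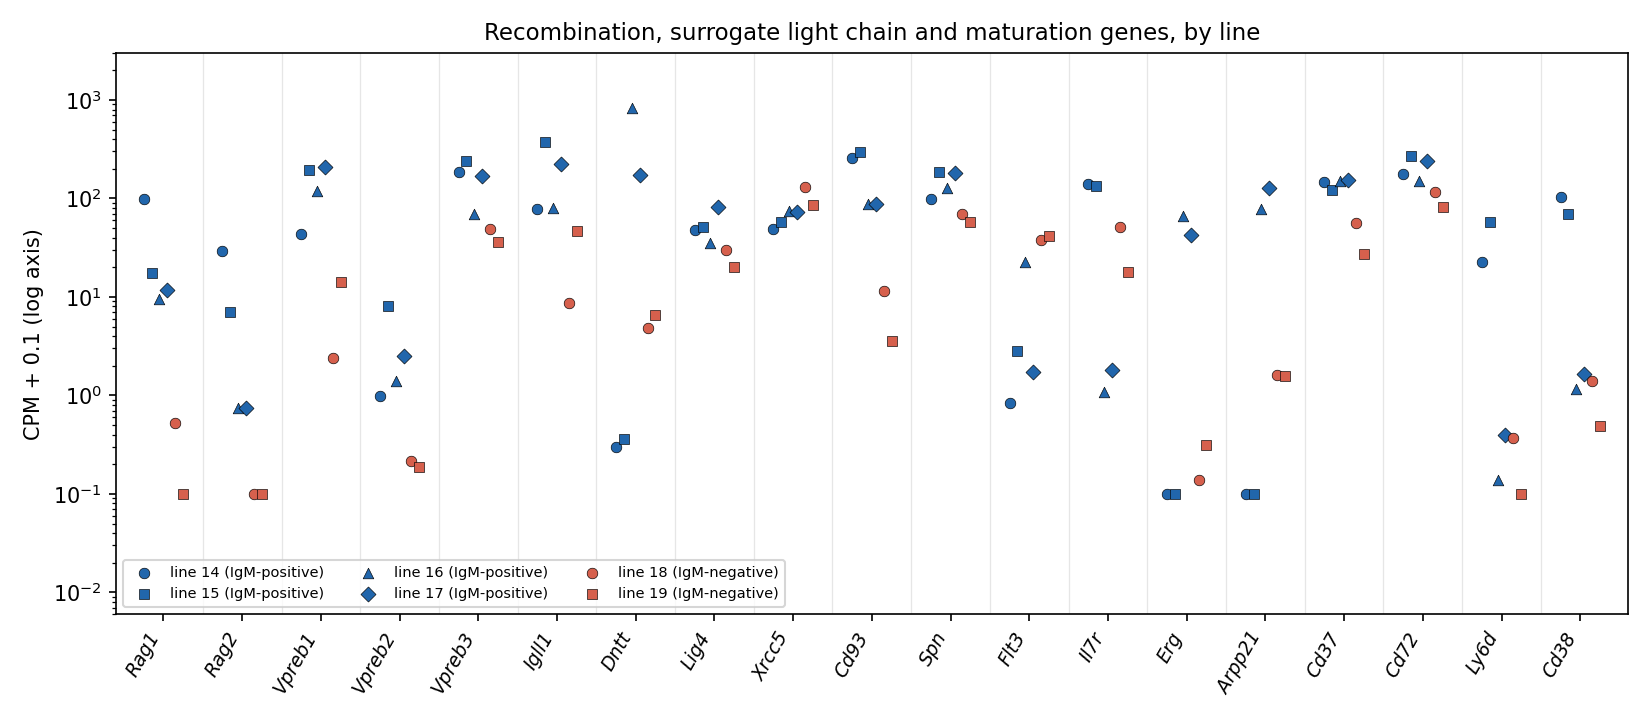
CPM + 0.1 on a log axis for genes of recombination, the surrogate light chain and B cell maturation, with 1 point per line (blue IgM-positive, red IgM-negative, symbols as in the key). *Rag1*, *Vpreb1* and *Cd93* were lower in both IgM-negative lines than in all 4 IgM-positive lines, while *Erg*, *Arpp21*, *Dntt*, *Il7r* and *Cd38* split the IgM-positive lines into 14 and 15 against 16 and 17.

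Among the genes of the pro-B and pre-B stage, *Cd93*, a surface glycoprotein of immature B cells, came closest to the threshold. It was at 259.6, 296, 88.7 and 87.3 CPM in lines 14 to 17 and at 11.3 and 3.45 CPM in lines 18 and 19, a difference of -4.55 ± 0.70 (limma, adjusted p = 0.0673). With the primary tumours added as a group of their own limma called it (adjusted p = 0.0327), as DESeq2 did on the 6 lines. *Spn*, which encodes the early B cell marker CD43, was at 97.8, 186, 127 and 182 and at 68.8 and 57.5 CPM (adjusted p = 0.231). *Flt3*, a cytokine receptor of progenitors, was higher in the IgM-negative lines, at 37.8 and 41.9 CPM, than in lines 14, 15 and 17 and also higher than in line 16, the values being 0.730, 2.74, 22.5 and 1.64 CPM (difference 3.75 ± 1.24, adjusted p = 0.338). *Cd24a*, a marker of immature B cells, overlapped at 1043, 1710.2, 1085 and 1011 and 1123 and 1719.8 CPM. Of 17 members 15 were tested, 3 were lower and 1 was higher without overlap, beside 15.0% and 7.61% of all tested genes. Limma called none (4 lower and 1 higher at an unadjusted p under 0.05), and DESeq2 called 4 lower, *Cd93*, *Spn*, *Enpep* and *Il2ra*.

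Many of these genes varied widely among the IgM-positive lines. *Il7r*, the receptor for the pro-B cell growth factor IL-7, was at 142, 132, 0.986 and 1.69 CPM in lines 14 to 17, and lines 18 and 19 held 50.8 and 17.8 CPM, between the pairs. *Erg*, a factor of early progenitors, was at 0, 0, 65.9 and 42.8 CPM and at 0.0391 and 0.216 CPM, and *Arpp21*, a marker of the pre-B stage, at 0, 0, 77.5 and 128 and at 1.52 and 1.47 CPM. The opposite order was seen for *Ly6d*, a marker of B lineage commitment, at 22.5, 58.2, 0.0379 and 0.299 and 0.273 and 0 CPM, and for *Cd38*, at 104, 70.0, 1.06 and 1.54 and 1.29 and 0.388 CPM. Lines 18 and 19 were therefore like lines 14 and 15 in *Erg* and like lines 16 and 17 in *Ly6d* and *Cd38*. These 5 genes were chosen after their values were seen. Of the 15 tested members of the pro-B and pre-B list, 11 spanned at least 4-fold over the 4 IgM-positive lines (73.3%), against 15.9% of all tested genes.

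The list of transitional and mature B cell genes gave 9 of 23 tested members lower and 0 higher without overlap, and none called by limma (5 lower and 0 higher at an unadjusted p under 0.05), while DESeq2 called 7 lower. *Cd37*, a tetraspanin of mature B cells, was at 148, 121, 151 and 155 CPM in lines 14 to 17, a narrow range, and at 56.0 and 26.9 CPM in lines 18 and 19 (-1.82 ± 0.31, limma adjusted p = 0.0949). *Cd72*, a co-receptor that dampens receptor signals, was at 175, 270.0, 151 and 243 and at 117 and 81.8 CPM (adjusted p = 0.266). *S1pr1*, a receptor that guides lymphocytes out of tissue, was at 28.9, 3.86, 2.62 and 1.54 and at 3.59 and 25.6 CPM, so that lines 14 and 19 held about the same level and the other lines little. *Cd86*, a co-stimulatory ligand, stayed at or below 2.24 CPM in all lines. The tumours held more *Cd37* than any line, at 477 and 678 CPM.

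RNA of most MHC class II genes was nearly absent from both IgM-negative lines, and also from 1 of the 4 IgM-positive lines, with *H2-Ab1* less so and 3 members apart, as given below. *Cd74*, the invariant chain that escorts class II proteins (GRCm38 chromosome 18), was at 435, 808 and 326 CPM in lines 14, 15 and 17, at 0.531 CPM in line 16 and at 0.391 and 0.474 CPM in lines 18 and 19. *H2-Aa*, an alpha chain, was at 137.8, 176 and 63.9 CPM in lines 14, 15 and 17, at 0.0758 CPM in line 16 and at 0.0391 and 0.0862 CPM in lines 18 and 19. *H2-Eb1*, a beta chain, was at 148, 218, 0.114 and 126 CPM in lines 14 to 17 and at 0.195 and 0.0862 CPM in lines 18 and 19. Line 16 was thus at the level of the IgM-negative lines for each of these genes.

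*Ciita*, the co-activator that class II genes need, had the same pattern, with 40.8, 72.6 and 26.8 CPM in lines 14, 15 and 17, no read in lines 16 and 19 and 0.0391 CPM in line 18. *H2-DMa* and *H2-DMb1*, which load peptides, were at 11.5, 13.8, 0 and 9.71 and at 11.3, 37.3, 0.0758 and 4.78 CPM in lines 14 to 17 and at or below 0.216 CPM in lines 18 and 19. *H2-DMb2*, the neighbouring copy, was at 3.16, 7.65, 0.0758 and 2.89 CPM and had no read in lines 18 and 19. *H2-Ab1*, the other classical beta chain, had the smallest adjusted p of the list (0.188, limma), with 165, 219.5, 9.67 and 108 CPM in lines 14 to 17 and 0.0781 and 2.50 CPM in lines 18 and 19 (-6.81 ± 1.53). The members *H2-Oa* and *H2-Eb2* did not share the pattern, with *H2-Eb2* at 19.3, 15.9, 7.92 and 48.8 CPM and at 20.9 and 21.6 CPM. *H2-Ob* had it in a milder form, without falling close to 0. It was at 42.1, 38.1, 19.0 and 45.6 CPM in lines 14 to 17 and at 22.9 and 9.40 CPM in lines 18 and 19.

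All 11 class II genes were tested and none was called by limma (5 were lower at an unadjusted p under 0.05). The median difference was -4.43, and 9 of the 11 spanned at least 4-fold among the IgM-positive lines. Without line 16, limma called 6 of the 11, and it called none without any other single line, while DESeq2 called 8 on all 6 lines. The primary tumours held far more, 4232 and 3509 CPM of *Cd74* and 919 and 952 CPM of *H2-Aa*, and in the preB-ALL libraries *Cd74* (341 and 1248 CPM) and *H2-Ab1* (106 and 126 CPM) were present with *H2-Aa* at 0.802 and 6.49 CPM. The class II members other than *H2-Ab1*, *H2-DMb2* and *H2-Eb2* were chosen after their values were seen.

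**Figure D3:**
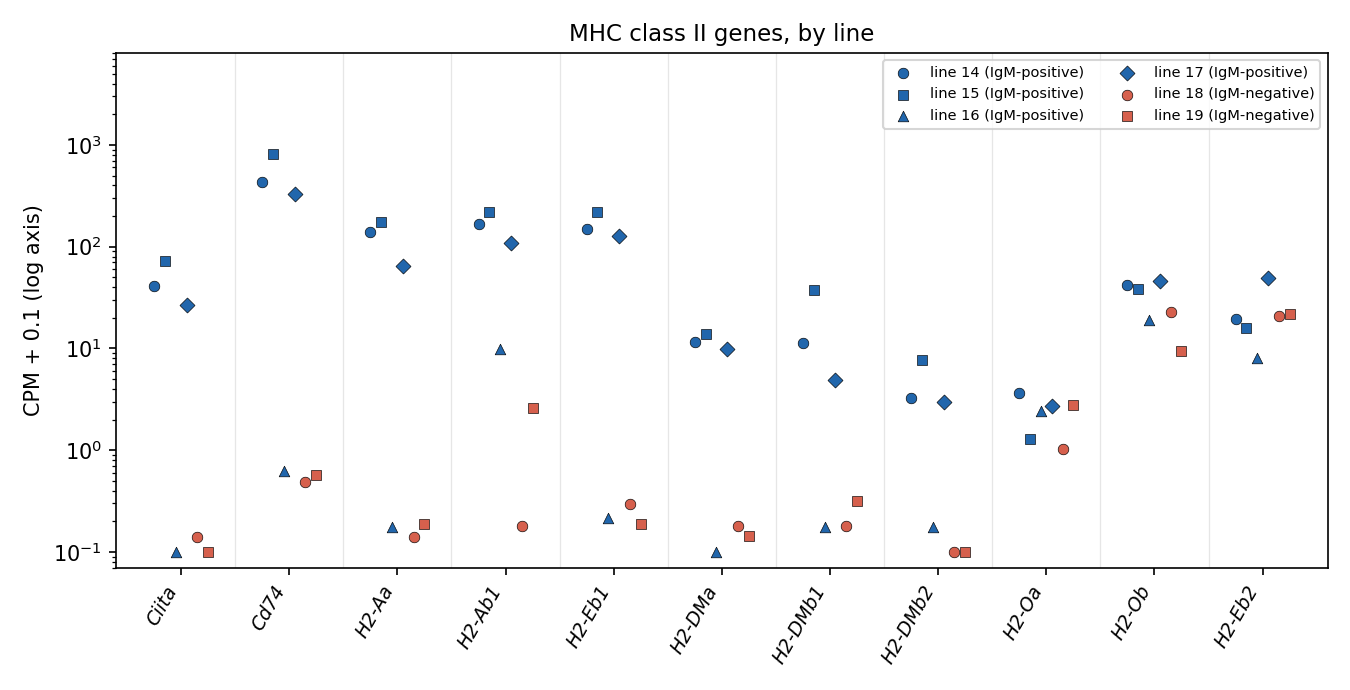
CPM + 0.1 on a log axis for the 11 MHC class II genes, with 1 point per line (blue IgM-positive, red IgM-negative, symbols as in the key). From *Ciita* to *H2-DMb2*, line 16 (blue triangle) lies near the IgM-negative lines and apart from lines 14, 15 and 17, least so for *H2-Ab1*. *H2-Ob* shows a smaller gap of this kind, and *H2-Oa* and *H2-Eb2* show none.

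The promoters of 2 class II genes are shown because these genes were at the same low level in lines 16, 18 and 19. They are RefSeq sequences of GRCm38.p6 from 250 bases before to 50 bases after the start, read 5′ to 3′ on the strand of the gene, *H2-Aa* at chr17:34287774-34288073 (minus strand) and *H2-Eb1* at chr17:34305617-34305916 (plus strand). Capitals mark the letters GATTGG, the reverse of the CCAAT box that forms the Y box of class II promoters, and CTAGCAAC, a form of the X box, both searched on both strands.
H2-Aa: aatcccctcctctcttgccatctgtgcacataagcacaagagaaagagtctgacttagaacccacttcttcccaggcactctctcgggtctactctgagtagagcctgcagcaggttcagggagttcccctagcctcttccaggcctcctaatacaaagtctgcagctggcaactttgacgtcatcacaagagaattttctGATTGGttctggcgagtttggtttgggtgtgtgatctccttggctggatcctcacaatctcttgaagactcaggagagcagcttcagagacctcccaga
H2-Eb1: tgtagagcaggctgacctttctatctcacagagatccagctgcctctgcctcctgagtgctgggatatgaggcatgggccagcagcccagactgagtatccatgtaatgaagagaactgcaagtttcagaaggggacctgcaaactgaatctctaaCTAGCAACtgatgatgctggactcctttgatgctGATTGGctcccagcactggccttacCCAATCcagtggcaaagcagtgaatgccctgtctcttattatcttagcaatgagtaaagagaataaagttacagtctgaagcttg
GATTGG was found once in *H2-Aa* and on both strands in *H2-Eb1*, which also held CTAGCAAC. Of the 8 class II genes with a promoter in the table, 7 held GATTGG (87.5%) and 3 held CTAGCAAC (37.5%). This compares with 22.0% and 1.40% of the 9234 tested genes with a promoter and 16.6% and 1.40% of all 27025 promoters. Both motifs were chosen as known parts of class II promoters, so their high share in these genes was set in advance. Whether they go with the low level in lines 16, 18 and 19 was not tested.

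Of the 52 genes of B cell receptor signalling, 51 were tested, and 16 were lower and 3 higher without overlap, with no call by limma (9 lower and 1 higher at an unadjusted p under 0.05) and 7 lower genes called by DESeq2. *Pik3ap1*, an adaptor that recruits PI3K to the receptor complex, was at 86.7, 188, 152 and 133 CPM in lines 14 to 17 and at 49.7 and 41.1 CPM in lines 18 and 19 (-1.51 ± 0.30, limma adjusted p = 0.132). *Nfatc2*, a calcium-driven transcription factor, was at 5.56, 0.600, 3.79 and 9.11 CPM and at 0.0391 and 0 CPM, with line 15 the lowest of its group (adjusted p = 0.179). *Ptprc*, the phosphatase CD45 that keeps the receptor kinases active, was higher in the IgM-negative lines, at 362 and 236 against 212.5, 179.9, 166 and 221 CPM, and *Sos1*, an activator of RAS, was at 54.1 and 70.8 against 43.4, 30.7, 45.9 and 52.5 CPM (adjusted p = 0.343 and 0.456). *Blk*, a receptor kinase of the SRC family chosen after its values were seen, was at 89.5 and 83.0 CPM in lines 14 and 15 and at or below 2.69 CPM in each of the other 4 lines. The median difference of the list was -0.36, and 10 of its members (19.6%) spanned at least 4-fold among the IgM-positive lines, close to the 15.9% over all genes.

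Inhibitory receptors, phosphatases and feedback genes included 34 tested members, of which 14 were lower, 2 were higher and 18 overlapped. Limma called none (10 lower and 0 higher at an unadjusted p under 0.05), and DESeq2 called 6 lower. *Ptpn6*, the phosphatase SHP-1 that shuts down receptor signals, was at 91.2, 257, 128 and 155 CPM in lines 14 to 17 and at 39.9 and 37.2 CPM in lines 18 and 19 (-1.87 ± 0.36, limma adjusted p = 0.132). *Spry1*, a feedback inhibitor of RAS signals, was at 0.730, 4.01, 2.88 and 2.04 CPM and at 0 and 0.0431 CPM, of which the latter is 0 reads and 1 read (adjusted p = 0.1). *Fcgr2b*, the inhibitory Fc receptor of B cells, was higher in the IgM-negative lines, at 215.8 and 141 against 125, 132, 55.1 and 32.9 CPM, and *Dok1*, an inhibitory adaptor, at 25.2 and 28.0 against 25.1, 19.8, 22.4 and 19.9 CPM. Neither passed the threshold (adjusted p = 0.482 and 0.532).

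**Figure D4:**
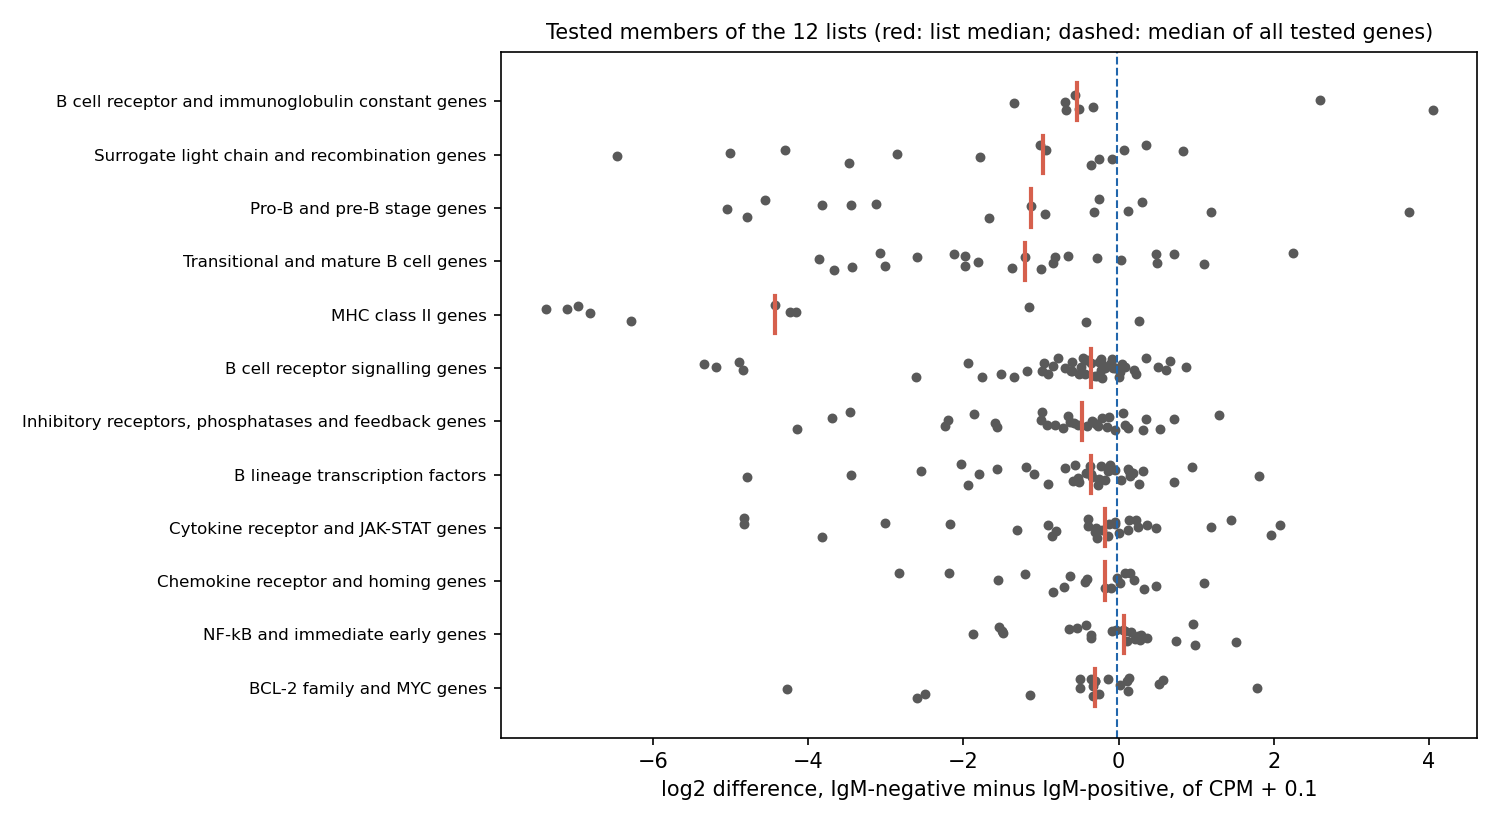
The log2 difference, IgM-negative minus IgM-positive, of every tested member of the 12 gene lists (grey points, 1 per gene), with the list median in red and the median of all tested genes as a dashed line. MHC class II genes have the lowest median, -4.43, and NF-kB and immediate early genes lie closest to the median of all genes, at 0.068; no point passed the adjusted threshold in limma.

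Among 38 tested B lineage transcription factors, 3 were lower and 1 was higher without overlap. Both shares are below the 15.0% and 7.61% of all tested genes. *Ebf1*, which starts the B cell programme, was at 114, 107, 52.5 and 61.2 CPM in lines 14 to 17 and at 31.9 and 10.6 CPM in lines 18 and 19 (-2.04 ± 0.52, limma adjusted p = 0.245). *Runx1*, a factor of blood cell development, was at 36.1, 64.2, 34.5 and 45.9 and at 15.5 and 21.7 CPM (adjusted p = 0.201). *Klf3* was at 1.14, 3.30, 6.71 and 1.29 and at 8.71 and 8.02 CPM, higher in the IgM-negative lines, and *Id2*, an inhibitor of E proteins, overlapped at 2.51, 0.937, 0.948 and 1.10 and 2.19 and 2.67 CPM. None of the 38 was called by limma (3 lower and 1 higher at an unadjusted p under 0.05), and DESeq2 called *Ebf1* and *Runx1*.

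Of 30 tested cytokine receptor and JAK-STAT genes, 7 were lower and 2 higher without overlap, beside 15.0% and 7.61% of all tested genes. *Il27ra*, the IL-27 receptor, was at 2.23, 7.83, 0.607 and 5.28 CPM in lines 14 to 17 and had no read in lines 18 and 19, and *Il10ra*, the IL-10 receptor, was at 11.6, 11.1, 1.44 and 0.598 CPM and at 0 and 0.0431 CPM (limma, adjusted p = 0.147 and 0.258). *Socs2*, a feedback gene of STAT5, was at 100.8, 46.3, 36.8 and 21.6 CPM and higher in the IgM-negative lines at 137 and 228 CPM (2.07 ± 0.58, adjusted p = 0.285). *Stat3*, a transducer of cytokine signals, was at 62.4, 65.3, 77.1 and 57.0 and at 82.5 and 90.8 CPM. Among 19 tested chemokine receptor and homing genes, 3 were lower and 1 was higher without overlap, near the shares of all tested genes. *S1pr4* was at 29.8, 16.9, 41.4 and 33.9 CPM against 7.62 and 11.6 CPM and the integrin gene *Itgal* at 4.66, 0.900, 4.47 and 0.846 against 0.352 and 0.0862 CPM, both lower without overlap. *Cd44*, an adhesion receptor, was the member that was higher without overlap, at 174, 152, 116 and 170.3 against 184 and 179.6 CPM, and *Itgb1*, an integrin gene, overlapped at 194, 186, 209.8 and 193 against 189 and 244 CPM. No gene of either list was called by limma (6 lower and 2 higher, and 3 lower and 0 higher, at an unadjusted p under 0.05). DESeq2 called 6 cytokine receptor and JAK-STAT genes, of which *Socs2* was higher, and of the homing genes *S1pr4* and *Itgal*.

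Of the NF-kB and immediate early genes, 4 of 24 tested members were lower and 1 was higher without overlap. These numbers are near the 15.0% lower and 7.61% higher of all tested genes. *Nfkbie*, an inhibitor of NF-kB, was at 6.08, 8.47, 6.25 and 11.2 CPM in lines 14 to 17 and at 2.97 and 2.24 CPM in lines 18 and 19 (limma, adjusted p = 0.222), and *Relb* at 6.85, 7.68, 2.12 and 2.34 and 1.76 and 0.948 CPM. *Ier2* was at 18.5, 14.0, 30.2 and 29.2 and at 32.7 and 37.5 CPM, and *Fos* was at 14.9, 9.18, 1.21 and 0.996 and at 19.1 and 5.39 CPM, with lines 16 and 17 lowest. None of the 24 was called by limma (1 lower and 0 higher at an unadjusted p under 0.05), and DESeq2 called *Nfkbie*.

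The genes activated by design did not separate the groups. *Myc* was at 1801, 1553, 1721 and 1148 CPM in lines 14 to 17 and at 1711 and 2602 CPM in lines 18 and 19, and *Bcl2* at 148, 163, 112 and 165 and at 138.1 and 99.4 CPM (limma, adjusted p = 0.496 and 0.692). Of 20 tested members of the BCL-2 family and MYC list, 8 were lower and 1 was higher without overlap. Limma called none (3 lower and 1 higher at an unadjusted p under 0.05), and DESeq2 called *Bcl2l2*, *Bak1* and *Mcl1* lower and *Pmaip1* higher. *Bcl2l2*, the survival gene that encodes BCL-W, was at 1.91, 7.01, 22.8 and 20.4 CPM and at 0.352 and 0.345 CPM (-4.28 ± 1.02, adjusted p = 0.214). *Bak1*, an effector of apoptosis, was at 117, 104, 125 and 101.1 and at 71.9 and 79.5 CPM (adjusted p = 0.302). *Pmaip1*, which encodes the pro-apoptotic NOXA, was higher in the IgM-negative lines, at 36.8 and 41.1 against 21.9, 11.5, 13.6 and 5.53 CPM (adjusted p = 0.295).

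The genes that passed the threshold lay outside all 12 lists. Of the 68 genes called by limma, 64 were lower in the IgM-negative lines (0.534% of the tested genes) and 4 were higher (0.0334%). At an unadjusted p under 0.05 there were 863 lower and 488 higher genes. The groups did not overlap for any of the 68, and 53 of the 64 differed by at least 8-fold. Of the 64, 36 were under 0.3 CPM in both IgM-negative lines. The called genes were spread over 18 autosomes, with at most 8 on 1 chromosome, and 1 of them had no position in the table.

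*Man1a*, a mannosidase that trims N-glycans in the Golgi (GRCm38 chr10:53904785-54076616), had the smallest p. It was at 69.5, 38.9, 54.6 and 51.0 CPM in lines 14 to 17 and at 0.117 and 0.129 CPM in lines 18 and 19, which is 3 reads in each (-7.83 ± 0.31, limma adjusted p = 0.00155). *Slc30a4*, a zinc transporter (chr2:122681233-122702663), was at 129, 69.7, 63.9 and 43.6 CPM and at 0.156 and 0.0862 CPM (-8.30 ± 0.45, adjusted p = 0.00501). *Dele1*, which relays mitochondrial stress (chr18:38250249-38262629), was at 35.4, 61.7, 31.3 and 88.4 CPM and at 0 and 0.129 CPM (adjusted p = 0.00501). In these genes every IgM-positive line lay far above both IgM-negative lines.

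*Retreg1*, a receptor for autophagy of the endoplasmic reticulum, was at 20.5, 41.6, 37.1 and 18.6 CPM and at 0.117 and 0.216 CPM. *Emid1* was at 68.2, 35.7, 57.3 and 61.5 and at 0.742 and 1.25 CPM, and *Eif4e3*, a cap-binding protein, at 34.1, 19.5, 15.4 and 20.8 and at 0.0781 and 0 CPM. *Rapgef5*, an activator of RAP GTPases, was at 9.12, 16.1, 20.4 and 28.6 CPM and *Svip*, an inhibitor of protein degradation at the endoplasmic reticulum, at 7.14, 5.66, 4.28 and 8.41 CPM, and neither had a read in lines 18 and 19. *Snx10*, a sorting nexin, was at 8.39, 14.4, 20.7 and 17.9 and at 0.0781 and 0.129 CPM and *Ano10* at 6.49, 7.68, 10.5 and 8.37 and at 0.0781 and 0.172 CPM. All 7 were at or below 1.25 CPM in both IgM-negative lines, with adjusted p between 0.00501 and 0.00846 (limma). All 10 lower genes named so far remained called when any single line was left out.

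Of the 4 genes that were higher in the IgM-negative lines, *Hrh3* differed most. *Hrh3*, a histamine receptor, was at 0.689, 0.225, 1.29 and 1.59 CPM in lines 14 to 17 and at 39.8 and 67.6 CPM in lines 18 and 19 (5.94 ± 0.73, limma adjusted p = 0.0347), and had no read in the tumours or the preB-ALL libraries. *Tubb2a*, a beta tubulin, was at 19.3, 19.3, 19.8 and 18.1 and at 45.9 and 57.5 CPM (adjusted p = 0.0233). *Aff4*, of the super elongation complex, was at 51.0, 66.1, 54.4 and 45.8 and at 117 and 115 CPM, and *Bag2*, a co-chaperone, at 83.5, 67.7, 70.1 and 72.5 and at 184 and 147 CPM (adjusted p = 0.0438 for each). Each of the 4 missed the threshold when line 14, 17, 18 or 19 was left out.

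The next 3 called genes were chosen after their values were seen, and no list of MHC class I genes was counted. *Nlrc5*, the co-activator of class I genes, was at 83.7, 73.7, 37.7 and 37.0 CPM in lines 14 to 17 and at 4.10 and 6.55 CPM in lines 18 and 19 (-3.30 ± 0.41, limma adjusted p = 0.0347). *Mr1*, which presents vitamin metabolites, was at 6.04, 5.55, 7.20 and 5.78 and at 0.117 and 0 CPM (-5.36 ± 0.47, adjusted p = 0.0103). *H2-Q4*, a class I gene whose reads may be shared with its near copies, was at 60.5, 44.1, 31.9 and 34.2 and at 2.81 and 0.604 CPM (-4.79 ± 0.59, adjusted p = 0.0347). *Mr1* missed the threshold without line 14 or 17, *H2-Q4* without any of the IgM-positive lines and *Nlrc5* without each line other than 16.

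**Figure D5:**
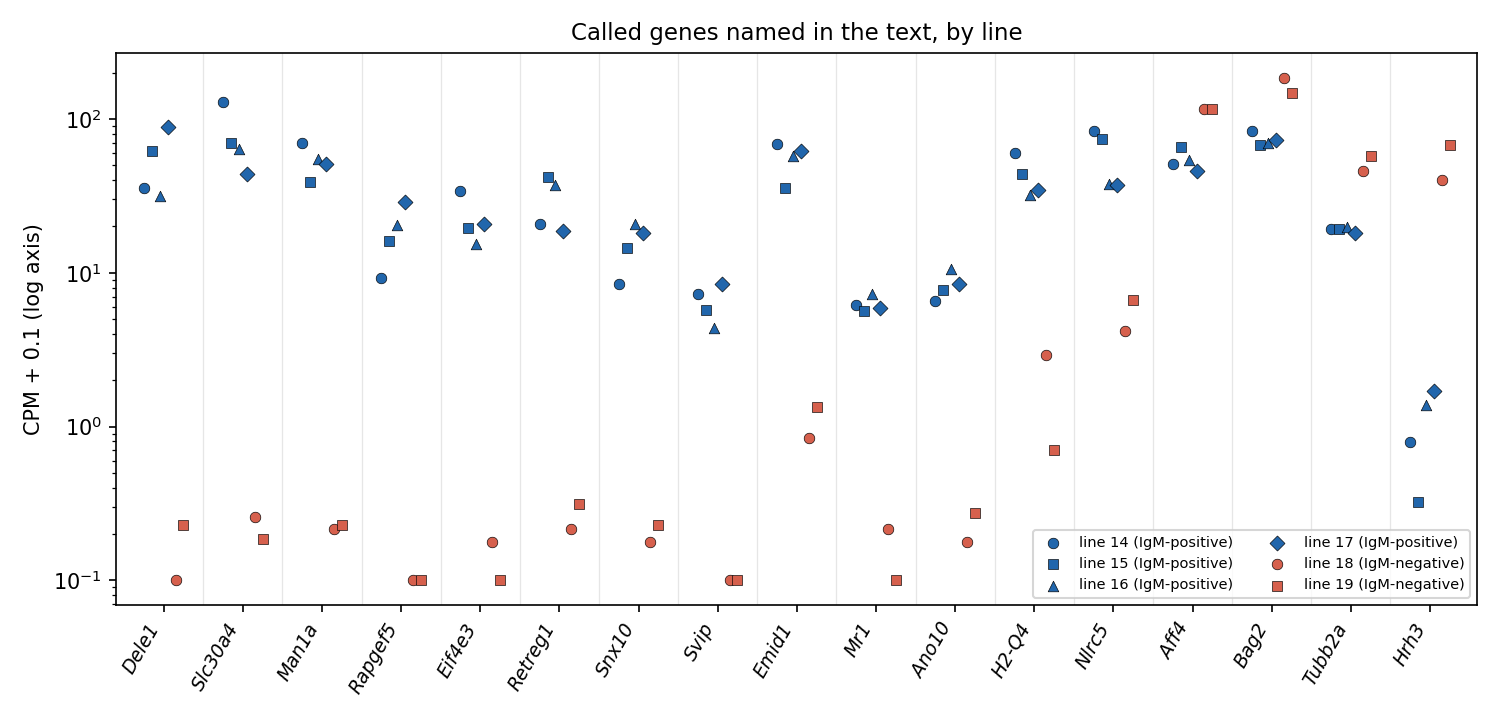
CPM + 0.1 on a log axis for 17 of the 68 called genes, ordered by their log2 difference, with 1 point per line (blue IgM-positive, red IgM-negative, symbols as in the key). The 13 genes on the left are lower in lines 18 and 19 than in all of lines 14 to 17, and the 4 on the right are higher.

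Of the 64 genes called lower, 36 were under 0.3 CPM in both IgM-negative lines. Shown are the promoters of 2 of these, those with the smallest p that have a symbol, and of *Mr1*, also 1 of them and chosen after its values were seen. They are RefSeq sequences of GRCm38.p6 over the same window, *Man1a* at chr10:54075688-54075987 (minus strand), *Slc30a4* at chr2:122702614-122702913 (minus strand) and *Mr1* at chr1:155146765-155147064 (minus strand). The start that the table uses for *Man1a* lies inside the gene range given above rather than at its outer end. Capitals mark only CG pairs in *Man1a* and *Slc30a4*, and in *Mr1* only the letters CTAGCAAC.
Man1a: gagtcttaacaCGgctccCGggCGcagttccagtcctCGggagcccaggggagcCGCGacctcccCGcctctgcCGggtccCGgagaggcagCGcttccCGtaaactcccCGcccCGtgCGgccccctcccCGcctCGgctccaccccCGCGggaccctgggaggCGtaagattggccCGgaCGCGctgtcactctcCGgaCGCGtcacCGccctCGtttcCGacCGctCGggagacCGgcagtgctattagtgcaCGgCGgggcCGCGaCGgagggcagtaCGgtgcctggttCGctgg
Slc30a4: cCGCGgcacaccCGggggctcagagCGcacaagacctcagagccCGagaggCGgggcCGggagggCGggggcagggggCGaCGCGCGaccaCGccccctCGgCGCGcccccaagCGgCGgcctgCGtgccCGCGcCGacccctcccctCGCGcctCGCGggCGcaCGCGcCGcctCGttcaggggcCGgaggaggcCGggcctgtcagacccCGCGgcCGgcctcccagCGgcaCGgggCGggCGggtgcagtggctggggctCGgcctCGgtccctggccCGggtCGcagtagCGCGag
Mr1: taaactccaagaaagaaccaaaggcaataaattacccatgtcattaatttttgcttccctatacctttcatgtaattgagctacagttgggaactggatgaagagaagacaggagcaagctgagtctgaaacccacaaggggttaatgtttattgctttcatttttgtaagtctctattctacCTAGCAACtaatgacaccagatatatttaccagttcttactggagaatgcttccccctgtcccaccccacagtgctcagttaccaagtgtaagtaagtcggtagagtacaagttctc
The window of *Man1a* holds 38 CG pairs, that of *Slc30a4* 46 and that of *Mr1* 1. Over the 48 of 64 genes called lower that have a promoter in the table the median was 20 CG pairs (quartiles 10 and 28.8), beside 21 (13 and 29) over the 9234 tested genes with a promoter. CTAGCAAC was found in 2 of these 48 promoters (4.17%), GATTGG in 7 (14.6%), beside 1.40% and 22.0% of the tested genes.

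The genes called lower were present in the reference samples about as often as all tested genes. Of the 64, 57 were at 1 CPM or more in both tumours (89.1%, against 87.7% of all tested genes) and 57 in both preB-ALL libraries (89.1%, against 89.5%). Among the named genes, *Svip* was at 0.964 and 3.79 CPM in tumours 20 and 21 and *Slc30a4* at 1.93 and 57.2 CPM. Over all tested genes, 54 were at 1 CPM or more in all IgM-positive lines and under 0.3 CPM in both IgM-negative lines. The reverse pattern was met by 1 gene, *Ddr1*, a collagen receptor named after its values were seen, at 0.162, 0.262, 0.265 and 0.0996 and at 2.23 and 2.93 CPM (limma, adjusted p = 0.0822), and the preB-ALL libraries held 37.1 and 18.5 CPM of it.

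The lines also differed within each group, lines 18 and 19 by fewer genes than any pair across the groups. Between lines 18 and 19, 1660 of the 11994 tested genes were at least 2-fold apart (13.8%). Among the 6 pairs of IgM-positive lines the number ran from 1635 for lines 16 and 17 to 2568 for lines 15 and 16, with a median of 2181. Among the 8 pairs across the groups it ran from 1896 for lines 16 and 19 to 2768 for lines 15 and 19, with a median of 2434.5. Line 16 was thus closer to line 19 than to line 14 or 15, at 2178 and 2568 genes.

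The comparison rested on 2 IgM-negative lines, and the count of called genes depended on single lines. It was 17 without line 14, 44 without line 15 and 19 without line 17, against 77 without line 16, 52 without line 18 and 104 without line 19.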

How the data were processed

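RNA was measured in 6 lymphoma lines, with 2 tumours and 2 preB-ALL libraries as reference levels. The authors aligned the reads to GRCm38 with Rsubread and deposited values per Entrez gene as CPM (counts scaled to the total of the library). Divided by the CPM of 1 read, 100% of the values in each column came out whole (tolerance 0.1), and these whole reads were used for the filter and the scaling. Of 25869 gene IDs, 25242 were named through the RefSeq table of GRCm38.p6, 14 through GENCODE, and 613 had no symbol. Whether counting used the strand was not given in the sources used here, so overlapping and antisense genes are uncertain.

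Genes on X and Y were dropped, genes were kept by edgeR's filterByExpr, and limma 3.58.1 (lmFit, eBayes with trend; R 4.3.3) was applied to log2(CPM divided by the TMM factor + 0.1) over the 6 lines, with Benjamini-Hochberg adjustment over 11994 genes and a threshold of 0.05. Alternatives were edgeR 4.0.16 (quasi-likelihood), DESeq2 1.42.0 and limma-voom on the recovered reads, other pseudocounts, scalings, filters and sample sets, and each line left out. The fits were also run on simulated reads with the same spread setting for every gene, which checks the code and not the calls made here. Shares carry 95% Wilson intervals.

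The lines, the 12 biology lists and the 6 lists of other cell types were chosen with earlier results of these data known. Named were all members with reads of the receptor and recombination lists, in each other list the 2 with the smallest p in each direction (up to 6 if called), the 10 called genes in each direction with a symbol, no overlap and the smallest p, and *Bcl2* and *Myc*. Genes outside this rule were chosen after their values were seen, as marked, or for the check of the B cell label. *Iglc4*, *Ahsp* and *Hbb-bt* are not analysed here.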

Additional observations from a re-analysis of the deposited data

Results flagged for a closer look

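In 10 of the 98 named genes checked, 1 of the 4 IgM-positive lines stood apart from the other 3. The measure is the gap to the nearest line as a share of the range of log2(CPM + 0.1), and Dixon's limit for 4 values, which chance passes in about 1 of 20 groups, was applied. Of the 78 genes named by the rule, 5 passed it (6.41%), near that rate. Line 16 stood below the others in the other 5, MHC class II genes that were added because it was low in them, so that their passing the limit is a description. The share was 0.849 for *Ciita*, 0.873 for *Cd74*, 0.853 for *H2-Aa*, 0.921 for *H2-Eb1* and 0.929 for *H2-DMa*. Line 16 was at 0 CPM for *Ciita* and *H2-DMa*.

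Line 15 stood above the others in *Nhej1* (share 0.905, 6.52 CPM), in *Cd24a* (share 0.866, 1710.2 CPM) and in *Ighg2b* (share 0.854, 1.50 CPM). Line 14 stood above the others in *Id2* (share 0.846, 2.51 CPM), and line 16 was the only IgM-positive line with reads of *Jchain* (share 1, 0.114 CPM).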

How the results depend on the processing

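The count of 68 called genes rested on the model and on single lines. It was 38 with a pseudocount of 1 CPM, 20 with edgeR, 712 with DESeq2, 105 with the tumours added as a group of their own, and 0 with limma-voom, where 1112 genes had an unadjusted p under 0.05. With each line left out in turn it ran from 17 to 104. The cause was not tested. Over the other alternatives it stayed between 49 and 85. Lower genes outnumbered higher genes in each setting that made calls.

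Of 1786 values of the 96 named genes that were fitted, under alternatives, 1647 kept their direction and their side of the threshold, 62 lost and 49 gained a call, and 28 turned in sign, none of them in a called gene. With edgeR and with DESeq2 the difference was 0.073 and 0.075 for *Ighd*, -0.15 and -0.15 for *Xrcc6*, -0.049 and -0.052 for *H2-Eb2*, and -0.91 and -0.91 for *Il7r*. With limma-voom it was 0.55 for *Arpp21*. With each line left out it ran from -1.58 to 0.94 for *Ighd*, -1.50 to 0.40 for *Igkc*, -2.94 to 8.13 for *Iglc1*, -2.70 to 0.23 for *Iglc3*, -2.67 to 1.15 for *Dntt*, -0.20 to 0.032 for *Xrcc4* and -0.38 to 0.53 for *Xrcc6*. It ran from -0.27 to 2.48 for *S1pr1*, -0.13 to 0.72 for *H2-Eb2*, -1.10 to 0.27 for *H2-Oa*, -0.50 to 0.026 for *Bcl2*, -0.019 to 2.32 for *Il7r* and -2.62 to 0.82 for *Arpp21*.

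The shares of V reads by class moved by less than the spread between lines when only V genes with 3 or more reads were kept. No paired analysis was possible because each line came from another mouse and the groups share no replicate number. Genes at under 1 CPM rest on a few reads in these libraries, and exact tests of 2 against 4 lines cannot go below p = 0.133.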

Other observations

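Other called genes that were lower in the IgM-negative lines are given here by values, and were chosen after these were seen. *Cd82*, a tetraspanin, was at 5.88, 10.8, 9.06 and 7.82 CPM in lines 14 to 17 and at 0.156 and 0.302 CPM in lines 18 and 19 (limma, adjusted p = 0.0103). *Ripk3*, the kinase of necroptosis, was at 17.1, 16.3, 11.6 and 20.8 and at 2.81 and 3.28 CPM (adjusted p = 0.0379). *Mgmt*, which repairs alkylated guanine, was at 1.50, 3.41, 2.50 and 5.98 and at 0 and 0.0431 CPM (adjusted p = 0.0459). *Lgr5*, a receptor for R-spondins, was at 9.16, 47.9, 27.1 and 75.8 and at 0.0391 and 0.0431 CPM, with 1 read in each IgM-negative line (adjusted p = 0.0192). Lower without falling to the floor were *Hdac7*, a histone deacetylase of lymphocyte development, at 118.2, 99.8, 96.2 and 98.4 and at 28.7 and 20.3 CPM, and *Sipa1*, an inhibitor of RAP1, at 122, 124, 174 and 107 and at 33.1 and 17.5 CPM (adjusted p = 0.0122 and 0.0452).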
